A study of Homo sapiens with 4 samples.

Results

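The genes described here are 60 genes of mitosis: cyclins and entry regulators, mitotic kinases and spindle proteins, spindle checkpoint proteins, centromere and kinetochore proteins, the chromosomal passenger complex, regulators of the anaphase-promoting complex, cytokinesis proteins, and proteins of condensed chromosomes. They were taken from a fixed list, with the kinesins left out except the kinetochore motor CENPE, through probe sets annotated to exactly 1 gene, and all 60 were measured among 19752 genes in all. The study used KYSE170, a human oesophageal squamous carcinoma cell line grown in medium with fetal bovine serum. One group of 2 arrays held RNA of cells left untreated, and the other 2 arrays held RNA of cells given ethyl-3,4-dihydroxybenzoate (EDHB), an inhibitor of prolyl hydroxylases, at 50 µg/ml for 12 h. The sample details list no time for the untreated cells. Both groups are the same cell line in culture, and nothing in the labels says that the 2 arrays of a group came from separate cultures, so p-values measure only the spread between these arrays.

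Mitotic entry is driven by CDK1 bound to cyclin A or cyclin B, kept in check by WEE1 and released by the CDC25 phosphatases. Polo-like and Aurora kinases then build the spindle, kinetochores attach chromosomes to it, and the checkpoint holds the anaphase-promoting complex (APC/C) inactive until every kinetochore is attached. The transcripts of most of these genes accumulate in G2 and mitosis under the B-MYB, MuvB and FOXM1 regulators, which act on promoters through the cell cycle genes homology region (CHR), together with NF-Y bound at CCAAT boxes.

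Values are log2 intensities on the arrays, and a change is the EDHB mean minus the untreated mean. In the deposited table the rows of the replicate 2 columns do not line up with those of replicate 1, and their probe set identities were restored from the untreated levels. All 130 probe sets of the members were restored, each with a posterior of at least 0.991. The restored EDHB arrays correlated at 0.997 over probe sets, against 0.418 in the deposited order, and restored changes correlated at 0.378 between the replicates. Where a member had several probe sets, the brightest stands for it. Every member had a mean level above 4.54, the median over all probe sets. Of 5 measured squamous markers (of 8 listed), 4 were at or above that median in untreated cells and KRT14 was below it at 3.75, while 0 of 3 leukocyte, 1 of 3 endothelial and 2 of 6 fibroblast markers reached it.

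The members were lower after EDHB in most cases. The change was negative for 54 of 60, with a median of -0.34 against -0.0014 over all genes, and the medians within replicate 1 and replicate 2 were -0.33 and -0.35. Both EDHB arrays lay below both untreated arrays for 48 members (22.6% of all genes) and above both for 4 (23.3% of all genes). Within both replicates, 51 members were lower (31% of all genes) and 4 were higher (6119 of all 19752 genes). Across the 60 members the changes within the 2 replicates correlated at r = 0.917, a description over genes measured on the same 4 arrays, and their median absolute difference was 0.10. Of the 100 genes with the lowest mean change, 16 were members, and the last of the 100 stood at -0.59. Among 201 genes that were lower by at least 0.5, 22 were members. In a bulk culture, fewer cells in G2 and mitosis and less of these transcripts per cell cannot be told apart.

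The tests were moderated by limma, over all genes. The main fit had no intensity trend in the prior variance. In it, 0 members were called at an adjusted p of 0.05, as were 0.0101% of all genes. The 2 genes called in that fit, MIR210HG and NMRAL2P, both higher, are named after their values were seen. The lowest adjusted p of a member there was 0.0648, at an adjusted p of 0.1 there were 15 members, all lower (0.248% of all genes), and at an unadjusted p of 0.05 there were 40 lower (8.05% of all genes) and 0 higher. A fit with an intensity trend was run as an alternative. In it, 28 members fell (1.03% of all genes were called lower) and 0 rose (1.37% were called higher). Of members, "fell" is written below only for these 28, and of other genes for those that passed the same fit. No member passed with the trend once any 1 of the 4 arrays was left out, where the lone array is assumed to vary like the others (37 to 40 members were then lower at an unadjusted p of 0.05, as were 4.55% to 6.77% of all genes), nor with the replicate number as a block (46 members, and 8.56% of all genes).

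**Figure D1:**
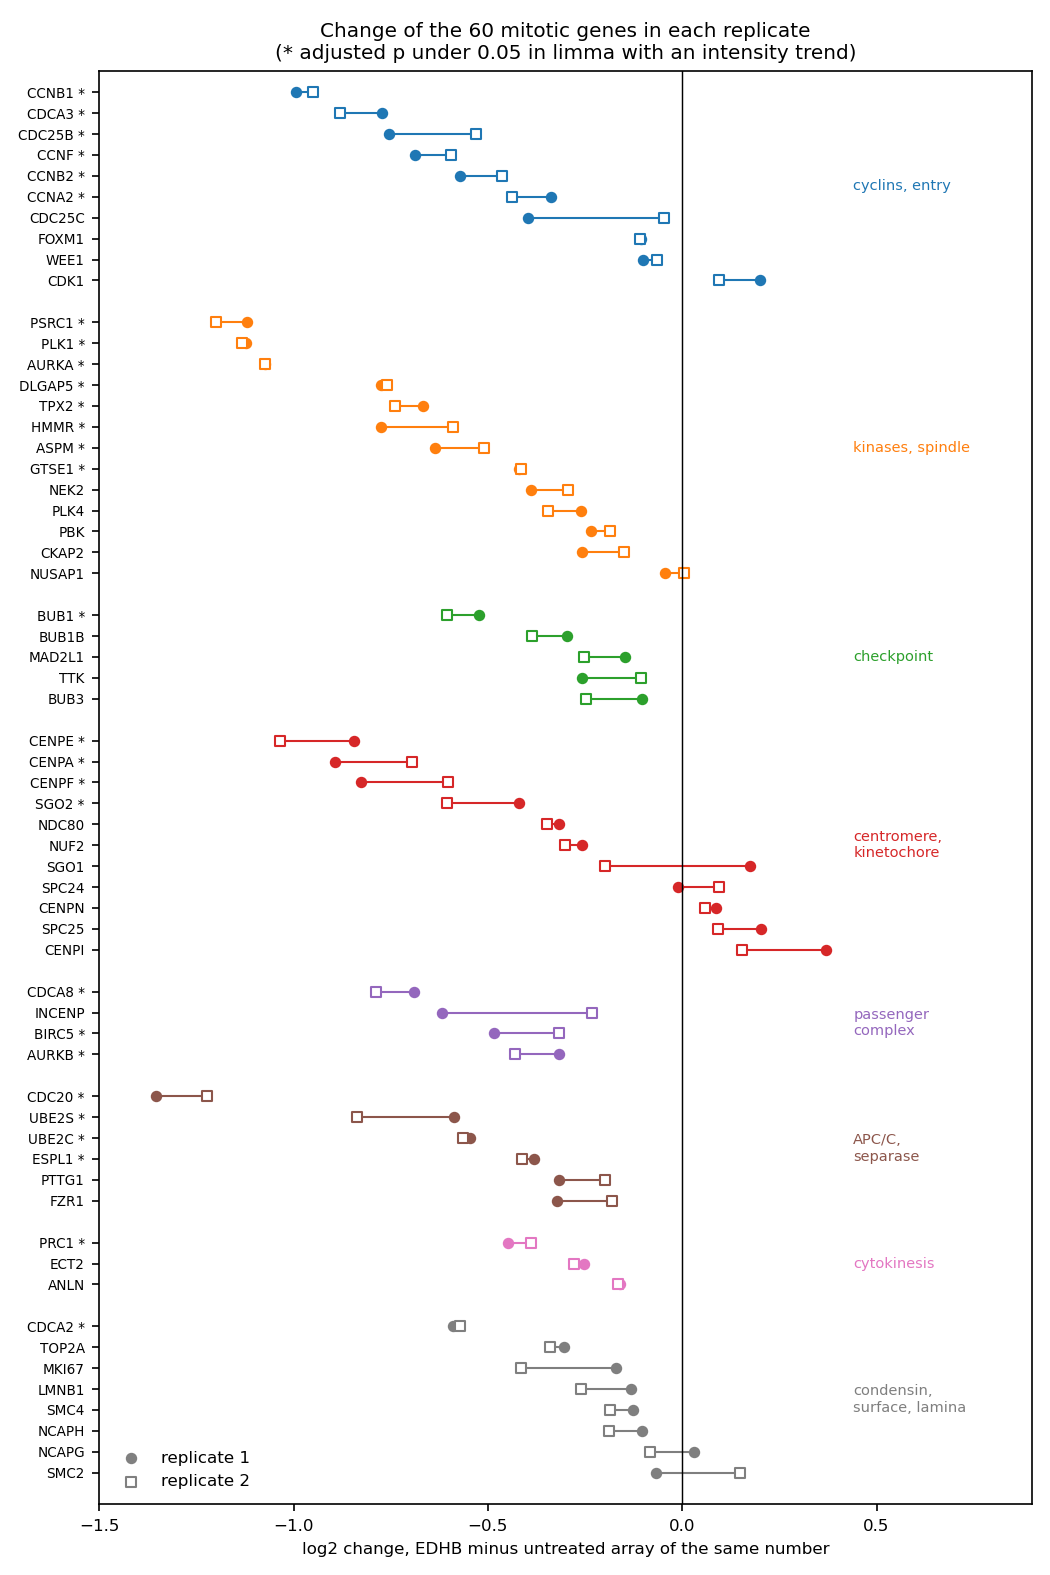
Log2 change of each of the 60 members (x axis, EDHB minus the untreated array of the same number) within replicate 1 (filled circles) and replicate 2 (open squares), grouped by role, with an asterisk for the 28 members that fell in limma with an intensity trend. CDC20 stands farthest to the left at -1.35 and -1.22, and 51 members are left of 0 in both replicates.

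Promoter windows were available for 50 of the 60 members, as RefSeq sequence on GRCh38.p14 from 250 bases before to 50 bases after the annotated start. The members AURKA, BIRC5, BUB3, CDCA2, FOXM1, PBK, TPX2, TTK, UBE2C and WEE1 had no match. The CHR core was searched as TTTGAA or TTTAAA and the NF-Y box as CCAAT, each on both strands, with TTTAAA, which reads the same on both strands, counted once. Matches of the 2 motifs can share at most 1 end letter. To show what these windows look like, the 120 bases before the start are printed for the 3 members with the largest falls among those with a CHR core, and for SGO1, the member with the smallest change. Letters are in capitals at a CHR core or at a CCAAT box on the printed strand.
CDC20: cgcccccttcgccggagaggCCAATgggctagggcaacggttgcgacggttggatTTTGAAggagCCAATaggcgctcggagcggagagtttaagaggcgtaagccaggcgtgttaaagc
PLK1: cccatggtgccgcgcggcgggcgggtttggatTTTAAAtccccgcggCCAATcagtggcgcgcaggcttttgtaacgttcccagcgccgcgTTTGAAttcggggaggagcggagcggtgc
CCNB1: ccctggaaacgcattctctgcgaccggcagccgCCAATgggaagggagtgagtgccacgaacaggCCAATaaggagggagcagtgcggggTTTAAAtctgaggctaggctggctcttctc
SGO1: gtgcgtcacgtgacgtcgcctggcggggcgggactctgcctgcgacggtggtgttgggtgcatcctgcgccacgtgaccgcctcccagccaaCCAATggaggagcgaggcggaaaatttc
These are chr1:43358861-43358980 on the plus strand for CDC20, chr16:23678769-23678888 on the plus strand for PLK1, chr5:69167030-69167149 on the plus strand for CCNB1, and chr3:20186207-20186326 on the minus strand for SGO1. In these stretches CDC20 and CCNB1 each have 1 CHR core and 2 CCAAT boxes, PLK1 has 2 CHR cores and 1 CCAAT box, and SGO1 has 1 CCAAT box and 0 CHR cores.

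A CHR core was present in 38 of the 50 member windows (76%), against 24.3% of all 27305 promoters of the same length and 19.0% of the 15365 of genes measured here. CCAAT was present in 35 (70%), against 35.7% and 36.0%, and both motifs in 27 (54%), against 9.49% and 7.48%. Among the members, those with CCAAT had a median change of -0.42, and 21 of 35 fell with the trend. Those without CCAAT had a median of -0.22, and 2 of 15 fell, CENPE and CDC25B. For the CHR core, 17 of 38 members with it and 6 of 12 without it fell, with medians of -0.34 and -0.36. Of 8 members with CCAAT but no CHR core in the window 5 fell, among them PSRC1 and UBE2S. Of 27 with both motifs 16 fell, and CDK1, SPC25 and CENPN were among those that did not pass. A match is a description of letters in a window, the members without a match are not represented, and these differences between subsets of members were not tested.

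**Figure D2:**
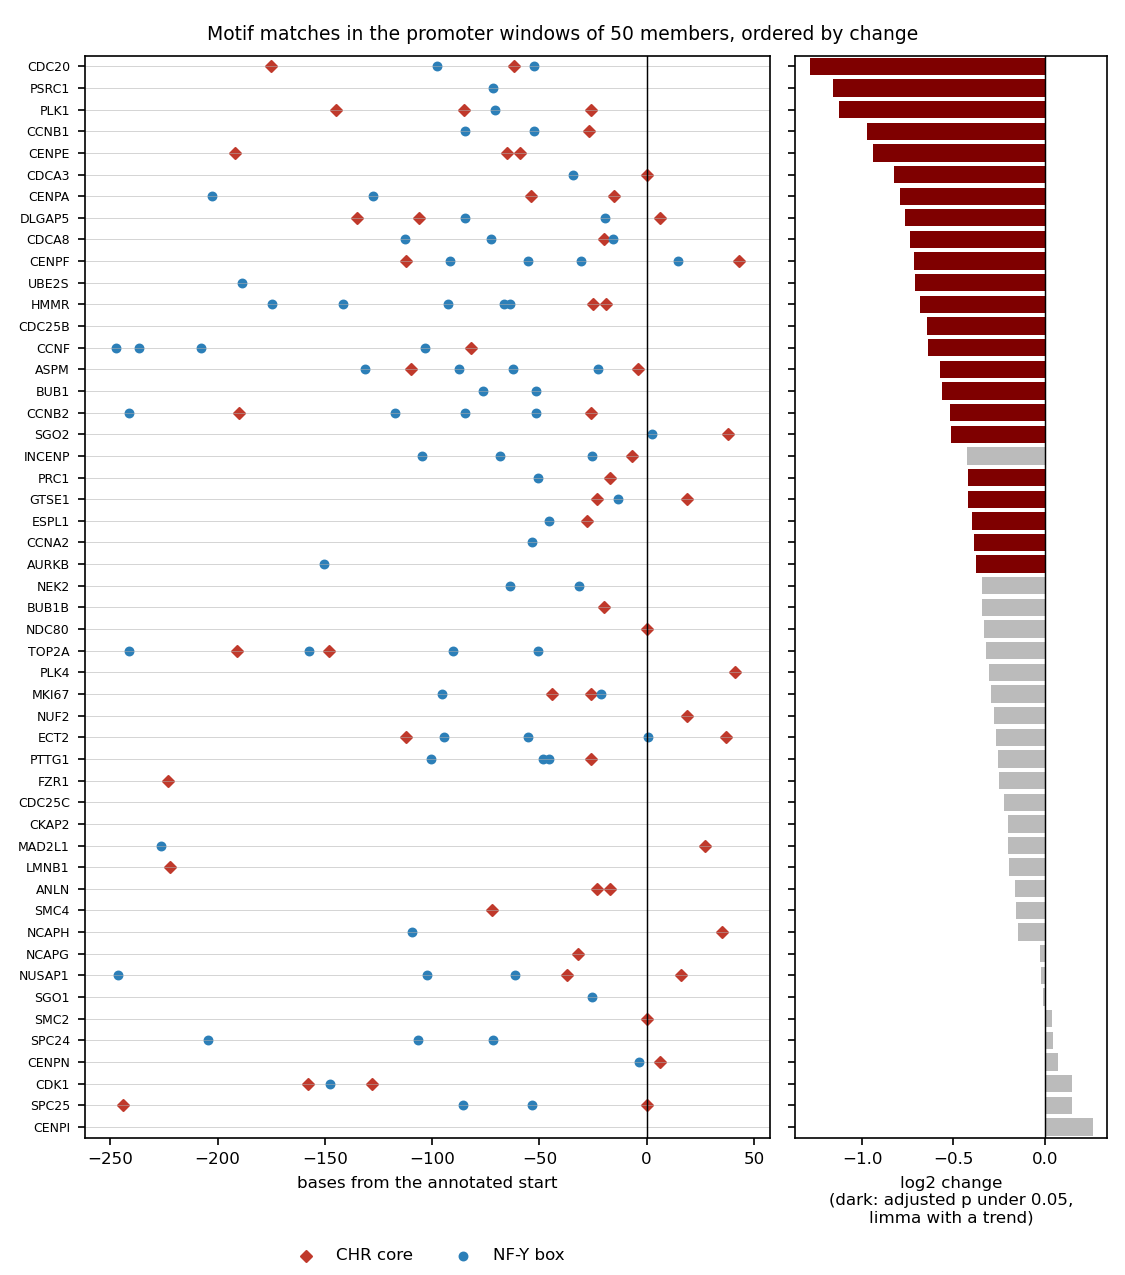
Positions of CHR core matches (diamonds) and NF-Y box matches (circles) relative to the annotated start (left, x axis in bases) in the windows of 50 members ordered by their log2 change (right, bars from 0, dark where the member fell in limma with an intensity trend). Of the 50 windows, 34 hold a CHR core from 100 bases before to 50 bases after the start.

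Among the cyclins and entry regulators, 6 of 10 fell and the median change was -0.45. CCNB1, cyclin B1, the main mitotic partner of CDK1, read 11.24 and 11.17 on the untreated arrays and 10.24 and 10.22 on the EDHB arrays. The groups did not overlap, and it fell by 0.97 (SE 0.05, adjusted p = 0.00272, limma with a trend), 1.96-fold. CDCA3, an adaptor that promotes degradation of WEE1, read 10.61 and 10.67 untreated and 9.84 and 9.79 with EDHB. It fell by 0.83 (SE 0.05, adjusted p = 0.00591). CDC25B, a phosphatase that activates CDK1 at entry, read 8.77 and 8.53 untreated and 8.02 and 8.004 with EDHB, and it fell by 0.64 (SE 0.09, adjusted p = 0.0336). WEE1, the kinase that holds CDK1 inactive, read 8.86 and 8.95 untreated and 8.75 and 8.88 with EDHB, so its groups overlapped, at a change of -0.08. CCNF, CCNB2 and CCNA2, which encode cyclins F, B2 and A2, fell by 0.64, 0.52 and 0.39. The phosphatase CDC25C changed by -0.22 and the transcription factor FOXM1 by -0.11, and neither passed. CDK1 itself stood at 11.27 and 11.43 untreated and 11.47 and 11.52 with EDHB, a change of 0.15 that did not pass (adjusted p = 0.278). Its 4 probe sets changed by 0.15, 0.01, -0.04 and -0.0004, with 0 of them lower in both replicates. The difference between CDK1 and its cyclin partners was not tested.

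**Figure D3:**
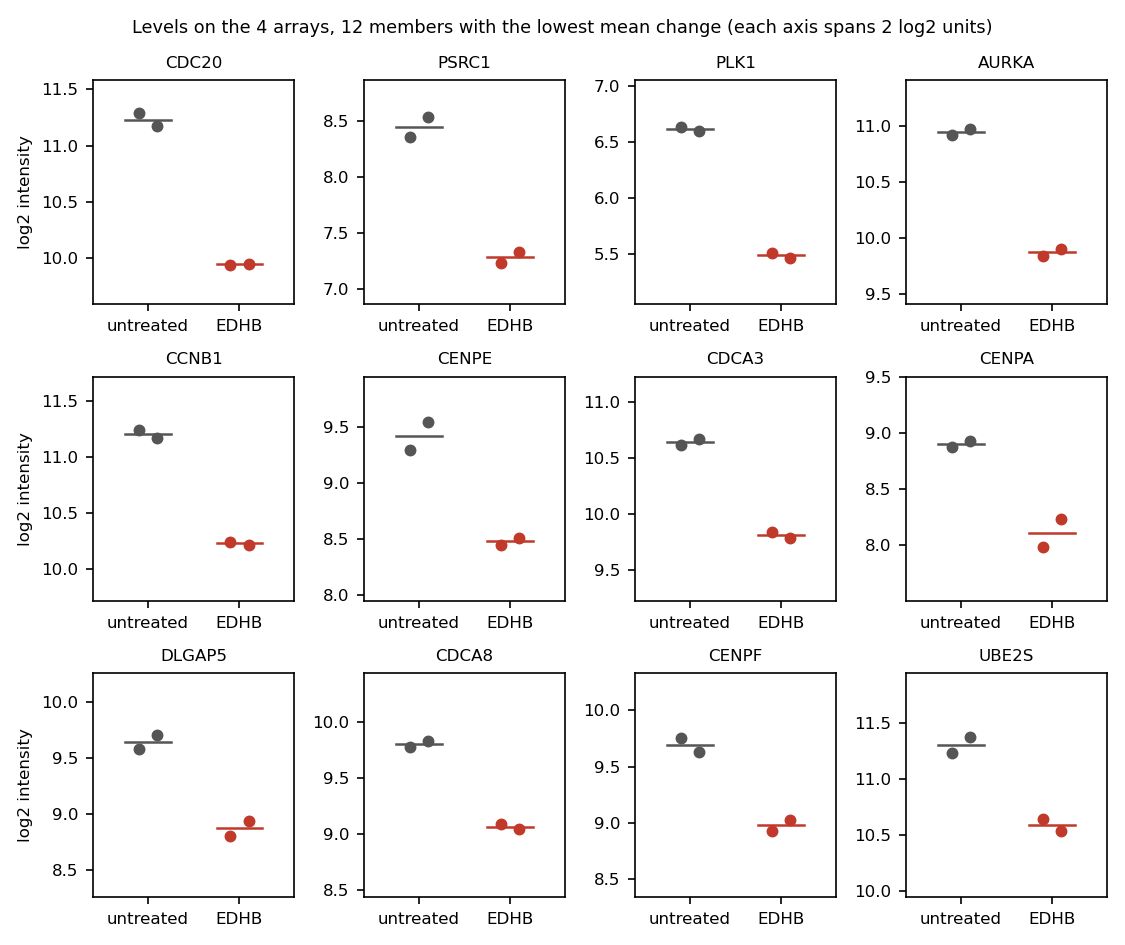
Log2 intensity (y axis) on the 2 untreated and 2 EDHB arrays (points) with the group means (bars) for the 12 members with the lowest mean change. The EDHB points lie below the untreated points in each of the 12 panels.

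The kinases, centrosome and spindle proteins had the lowest median of the groups of members by role, -0.57, with 8 of 13 falling. PSRC1, a microtubule-binding protein of the mitotic spindle, read 8.36 and 8.53 untreated and 7.24 and 7.33 with EDHB. It fell by 1.16 (SE 0.09, adjusted p = 0.00831), 2.24-fold. PLK1, polo-like kinase 1, whose promoter is printed above, read 6.63 and 6.59 untreated and 5.51 and 5.46 with EDHB. It fell by 1.13 (SE 0.09, adjusted p = 0.00831), 2.19-fold. AURKA, the centrosomal Aurora kinase, read 10.91 and 10.97 untreated and 9.84 and 9.90 with EDHB. It fell by 1.07 (SE 0.05, adjusted p = 0.0025), 2.11-fold, and all 3 of its probe sets were lower in both replicates, with mean changes of -1.08, -1.07 and -0.91. TPX2, which activates AURKA on spindle microtubules, fell by 0.70. The spindle proteins DLGAP5, HMMR and ASPM fell by 0.77, 0.68 and 0.57, and GTSE1 by 0.42. Dimmer GTSE1 probe sets changed by -0.78, -0.73, -0.72 and -0.20. NEK2, a centrosome kinase, PLK4, the kinase of centriole duplication, the kinase PBK and the spindle protein CKAP2 changed by -0.34, -0.30, -0.21 and -0.20 and did not pass. NUSAP1, another microtubule-binding spindle protein, was nearly level, at 9.55 and 9.52 untreated and 9.50 and 9.53 with EDHB. Between kinases of 1 family, the change of PLK1 minus that of PLK4 was -0.86 and -0.79 in the 2 replicates, and that of AURKA minus AURKB was -0.76 and -0.64. These differences were not tested.

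The spindle checkpoint genes had small negative changes, with a median of -0.20 and 1 of 5 falling. BUB1, the kinase that marks kinetochores for the checkpoint, read 9.13 and 9.28 untreated and 8.61 and 8.68 with EDHB, and it fell by 0.56 (SE 0.08, adjusted p = 0.0306). BUB1B, which encodes the APC/C inhibitor BUBR1, read 9.71 and 9.85 untreated and 9.41 and 9.46 with EDHB, a change of -0.34 that did not pass (adjusted p = 0.0621). MAD2L1, the MAD2 protein that sequesters CDC20, read 9.73 and 9.76 untreated and 9.58 and 9.51 with EDHB. BUB3, which brings BUB1 and BUBR1 to kinetochores, read 11.59 and 11.66 untreated and 11.49 and 11.42 with EDHB, a change of -0.17. TTK, the MPS1 kinase, changed by -0.18. By the brightest probe set, all 5 had both EDHB arrays below both untreated arrays, as had 22.6% of all genes. Of 3 MAD2L1 probe sets, 2 were lower in both replicates. The other read 9.37 and 9.56 untreated and 9.40 and 9.46 with EDHB, so its groups overlapped.

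Of 11 centromere and kinetochore genes, 4 fell, 7 had a negative change and 4 a positive one, with a median of -0.28. CENPE, the kinetochore motor, read 9.29 and 9.55 untreated and 8.45 and 8.51 with EDHB. It fell by 0.94 (SE 0.09, adjusted p = 0.015), 1.92-fold. CENPA, the histone H3 variant of centromeric nucleosomes, read 8.88 and 8.93 untreated and 7.98 and 8.23 with EDHB, and it fell by 0.79 (SE 0.10, adjusted p = 0.0234). CENPF, a kinetochore protein that accumulates in G2, read 9.76 and 9.63 untreated and 8.93 and 9.02 with EDHB. It fell by 0.72 (SE 0.07, adjusted p = 0.015), and its 3 probe sets were all lower in both replicates. Of the shugoshins, which protect centromeric cohesion, SGO2 fell by 0.51. SGO1 read 5.87 and 5.93 untreated and 6.04 and 5.73 with EDHB, so that the untreated values lay between the EDHB ones, and the difference between SGO1 and SGO2 was not tested. Of the NDC80 complex, which binds microtubules, NDC80 and NUF2 changed by -0.33 and -0.28 and SPC24 and SPC25 by 0.04 and 0.15. None of the 4 passed, differences between them were not tested, and SPC24 stood at -0.0099 in replicate 1. CENPN and CENPI, of the constitutive centromere network, changed by 0.07 and 0.26, with CENPN at -0.0059 over the mean of its 4 probe sets. CENPI had the highest change of the 60, at 6.64 and 6.91 untreated and 7.02 and 7.07 with EDHB, and did not pass (adjusted p = 0.271).

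The chromosomal passenger complex, which corrects attachments and later directs cytokinesis, had all 4 subunits lower, with a median of -0.41. CDCA8, the subunit borealin, read 9.78 and 9.83 untreated and 9.09 and 9.04 with EDHB, and it fell by 0.74 (SE 0.06, adjusted p = 0.00831). BIRC5, survivin, read 10.09 and 9.97 untreated and 9.61 and 9.65 with EDHB, and it fell by 0.40 (SE 0.06, adjusted p = 0.0394). AURKB, the kinase of the complex, read 8.84 and 8.89 untreated and 8.52 and 8.46 with EDHB. It fell by 0.37 (SE 0.06, adjusted p = 0.0479), but its dimmer probe set changed by 0.06, so the call rests on 1 probe set. INCENP, the scaffold, read 5.73 and 5.55 untreated and 5.11 and 5.32 with EDHB, and its change of -0.42 did not pass (adjusted p = 0.13), with -0.62 in replicate 1 and -0.23 in replicate 2.

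Regulators of the APC/C and separase had a median of -0.48, and 4 of 6 fell. CDC20, the activator that starts anaphase, read 11.29 and 11.17 untreated and 9.93 and 9.95 with EDHB. It fell by 1.29 (SE 0.06, adjusted p = 0.0025), 2.44-fold, and ranked 1 by lowest change of the 19752 genes with a restored probe set. FZR1 (CDH1), the activator that replaces CDC20 at mitotic exit and in G1, read 7.13 and 7.10 untreated and 6.81 and 6.91 with EDHB, a change of -0.25 that did not pass (adjusted p = 0.179). The ubiquitin-conjugating enzymes of the APC/C both fell. UBE2S, which extends chains, read 11.23 and 11.37 untreated and 10.64 and 10.54 with EDHB, and fell by 0.71 (SE 0.07, adjusted p = 0.0137). UBE2C, which starts them, read 10.71 and 10.72 untreated and 10.16 and 10.16 with EDHB, and fell by 0.55 (SE 0.05, adjusted p = 0.0112). ESPL1, separase, fell by 0.40, and its inhibitor PTTG1, securin, changed by -0.26 and did not pass (adjusted p = 0.0621).

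At cytokinesis, PRC1, which bundles midzone microtubules, read 10.42 and 10.37 untreated and 9.97 and 9.98 with EDHB. It fell by 0.42 (SE 0.05, adjusted p = 0.0242). ECT2, the exchange factor that activates RhoA, read 9.79 and 9.94 untreated and 9.53 and 9.66 with EDHB, and ANLN, anillin of the contractile ring, read 10.82 and 10.98 untreated and 10.66 and 10.82 with EDHB. Their changes of -0.27 and -0.16 did not pass, and the nearest ANLN arrays of the groups were about level. A dimmer ANLN probe set read 10.01 and 10.08 untreated and 9.61 and 9.73 with EDHB, a change of -0.37. Among 8 genes of condensed chromosomes and the lamina, 1 fell and the median was -0.18. CDCA2, which brings a phosphatase to anaphase chromosomes, read 8.14 and 8.22 untreated and 7.55 and 7.65 with EDHB, and fell by 0.58 (SE 0.08, adjusted p = 0.0286). TOP2A, the topoisomerase that untangles sister chromatids, read 10.65 and 10.83 untreated and 10.34 and 10.49 with EDHB, a change of -0.32 (adjusted p = 0.0985). MKI67, the Ki-67 protein that coats mitotic chromosomes, read 9.05 and 8.91 untreated and 8.88 and 8.49 with EDHB, and its change of -0.29 had an SE of 0.13. It was -0.10 without EDHB replicate 2 and -0.49 without EDHB replicate 1. NCAPG, a condensin subunit, read 9.37 and 9.34 untreated and 9.40 and 9.25 with EDHB, so the groups overlapped. The other condensin subunits SMC4, NCAPH and SMC2 changed by -0.16, -0.15 and 0.04 (SMC2 by -0.067 in replicate 1), and lamin B1 (LMNB1) by -0.20.

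Early and late genes were compared by the stage at which their products act. The early class (G2, entry and prophase, 19 genes) had a median change of -0.32, with 8 falling. PLK4 was counted in the early class, although centriole duplication begins before G2. The middle class (spindle, kinetochore and checkpoint, 27 genes) had -0.37, with 13 falling. The late class (anaphase, exit and cytokinesis, 10 genes) had -0.41, with 6 falling, and all 10 were negative in both replicates. So were 16 of 19 early genes, 21 of 27 middle genes and 31% of all genes. MKI67, LMNB1, PBK and GTSE1 were placed in no class. The early median was thus 0.09 above the late one. Within replicate 1 the early, middle and late medians were -0.34, -0.32 and -0.41, and within replicate 2 they were -0.34, -0.35 and -0.40. The early minus late difference ranged from -0.0070 to 0.15 when 1 array was left out, and turned sign without untreated replicate 1. Each class spanned more than the gap between them: changes ran from -1.13 (PLK1) to 0.15 (CDK1) in the early class, from -1.16 (PSRC1) to 0.26 (CENPI) in the middle class and from -1.29 (CDC20) to -0.16 (ANLN) in the late class. The order of the classes was not tested.

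**Figure D4:**
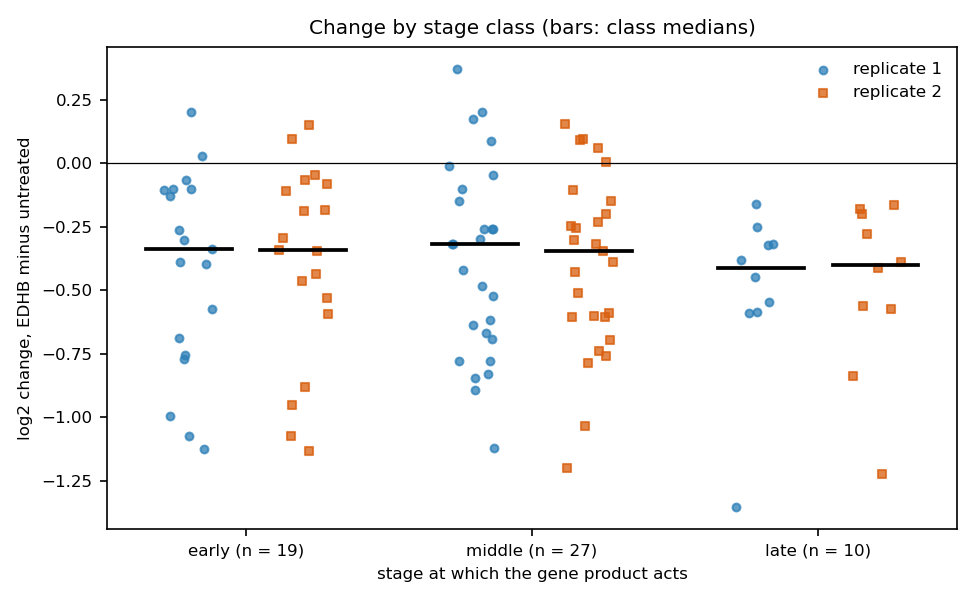
Log2 change of the members (y axis) within replicate 1 (circles) and replicate 2 (squares) by the stage at which the gene product acts, with bars at the class medians. In both replicates, all 10 late, 16 of 19 early and 21 of 27 middle genes lie below 0 (31% of all genes do). The 3 classes overlap over most of their range.

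Different probe sets of a member mostly gave the same direction. Of the 130 member probe sets, 105 were lower within both replicates (31.3% of all probe sets with 1 gene) and 9 were higher in both. Among 35 members with several probe sets at or above the median level, the mean changes differed in sign for 3, AURKB, CDK1 and CENPN. The 4 members CDC20, PSRC1, PLK1 and AURKA were at least 2-fold lower within both replicates, as were 6 genes in all (0.0304%), the others being the kinesin KIF20A and ANKRD1. For 7 member probe sets, those of CDC20, PSRC1, PLK1, AURKA (2 probe sets), CENPE and CCNB1, the replicate 2 value came from the 45 that stood at least 2-fold lower in the replicate 2 layout, so the replicate 2 change was used in placing them. Their replicate 1 changes, which need no restoring, were -1.35 for CDC20, -1.12 for both PSRC1 and PLK1, and -1.08 and -1.07 for AURKA. They were -0.85 for CENPE and -0.975 for CCNB1. For CCNB1 this was the dimmer of 2 probe sets. The CCNB1 values given above came from the brighter one, which was not among the 45. Of the 45, only 23 were placed at a posterior of at least 0.95, and 20 of these were lower in replicate 1. Counts of genes at least 2-fold lower, the rank of CDC20 and the genes with the lowest change therefore cover placed probe sets only.

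Other genes of the cell cycle were read from lists that hold no member. Over all genes, 1.03% fell and 1.37% rose in limma with a trend. Of 30 other spindle, centrosome and cytokinesis genes, 10 fell and 0 rose in limma with a trend, with a median of -0.32. That list also names genes of other roles, among them condensin subunits, MASTL and BRCA1. FAM83D, a spindle protein, fell by 0.92 and BORA, which helps AURKA activate PLK1, by 0.75, while MASTL and BRCA1 changed by 0.51 and 0.41 and did not pass. Of 28 other kinetochore and centromere genes, 2 fell and 1 rose, with a median of -0.04. HJURP, the chaperone that loads CENPA, fell by 0.67 and SPDL1 by 0.39, while CENPU rose by 0.66 and CENPQ changed by 0.45 without passing. None passed among 14 genes of an APC/C core list (median -0.08) or 13 cohesin genes (median -0.01), close to the shares over all genes. The APC/C core list also names the APC/C inhibitor FBXO5. Lowest and highest changes were -0.24 (CDC27 and ANAPC4) and 0.16 (ANAPC16) for the APC/C list, and -0.18 (STAG1) and 0.37 (ESCO2) for cohesin. Of 12 genes of the DREAM complex and B-MYB, E2F5 fell by 0.90 and the median was 0.03, with TFDP2 highest at 0.34. Of 33 genes of G1/S and replication, 0 fell and CCNE2, cyclin E2, rose by 0.81, with a median of 0.03 and the lowest change at -0.14 (MCM2). In limma without a trend 0 genes of these 6 lists passed (0.0101% of all genes did). The APC/C core list and the APC/C regulators among the members thus stood at medians of -0.08 and -0.48, and the difference was not tested.

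**Figure D5:**
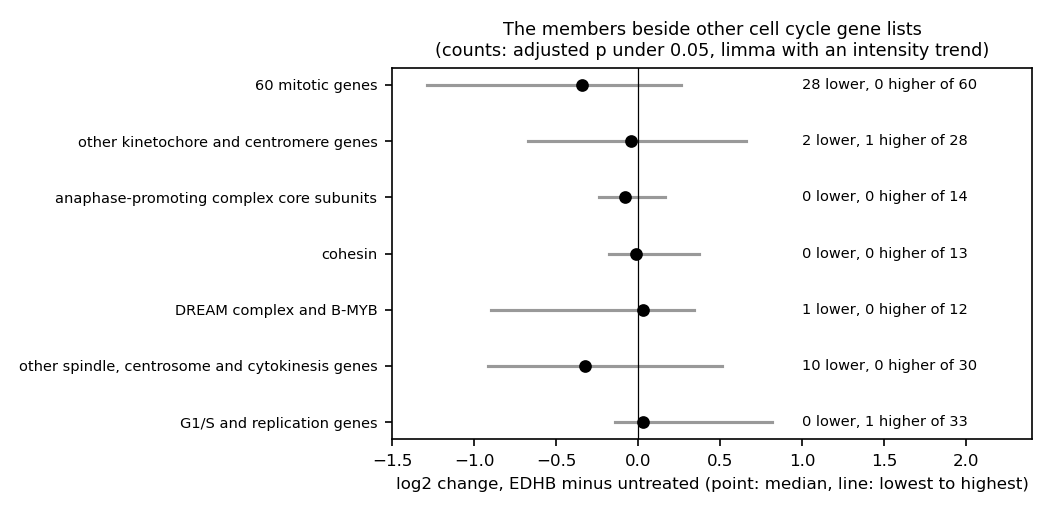
Median (points) and lowest to highest log2 change (lines, x axis) of the 60 members and of 6 other cell cycle lists, with the number of genes called lower and higher by limma with an intensity trend printed at the right. The members and the other spindle, centrosome and cytokinesis genes have medians of -0.34 and -0.32, and the other 5 lists have medians between -0.08 and 0.03.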

How the data were processed

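The 4 RNA samples were biotin-labelled for Affymetrix arrays. The deposited table gives linear intensity per probe set, made by the authors with RMA per the submitters' processing notes, which name no version. RMA equalises the intensity distributions of arrays, so a global shift cannot be seen. Median intensity was 23.3 to 23.5 per array, and precision is limited by having 2 arrays in each group. Log2 was taken with no pseudocount.

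Replicate 2 columns stood in another row order. Their layout, inferred from the values and recorded in no label, was lists of 148 probe sets at least 2-fold higher and 45 lower, then the rest, each in spreadsheet ID order. A forward-backward alignment on untreated levels (Student's t density, scale 0.15, 3 degrees of freedom) restored 54467 of 54613 probe sets at a posterior of at least 0.95. Of the 2-fold lists, 95 of the 148 higher and 23 of the 45 lower ones were restored. In simulated data 54476 were restored, 0 of them wrongly. Those data were drawn from the alignment's own t density and its inferred row order. The count of 0 therefore cannot reveal mistakes made if either of these is wrong for the real arrays. Restored untreated arrays differed by a median of 0.125, a small difference that matching on these levels favours.

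Of the probe sets, 41091 were annotated to 1 gene, 1801 to several and 11721 to none. The brightest restored probe set stood for a gene. Tests used limma 3.58.1 in R 4.3.3 (lmFit, eBayes, two-sided, Benjamini-Hochberg over 19752 genes), without and with an intensity trend, on 2 residual degrees of freedom and 3.06 or 4.23 prior ones. In simulated data, 0% and 18% of changes of 0.5 were recovered without and with the trend, and 76% of changes of 1 by both. Those data had independent normal errors with variances taken from the fit with a trend. Recovery on the real arrays can therefore differ from these shares. By rule, the 3 members with the largest change and the 1 with the smallest in each role group are given array by array, and up to 2 genes in each direction of each other list. CDK1 and CENPI were added after their values were seen. The members and lists were chosen with earlier results of these data known. The main fit was the one without a trend. The fit with a trend was an alternative to it, as was an adjusted p of 0.1. Other alternatives were scaling, dim probe sets, the probe set rule, the posterior minimum, the replicate 1 pair, the replicate block and leaving out each array. The intensity-trend fit was tried under these settings by a choice made after seeing the data.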

Additional observations from a re-analysis of the deposited data

How the results depend on the processing

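Of the 60 members, 55 kept the direction of their mean change in all settings run, and 5 did not. NCAPG stood at 0.030 in the replicate 1 pair and at -0.099 to 0.046 without 1 array, positive without EDHB replicate 2. SGO1 stood at 0.17 in the replicate 1 pair and at -0.17 to 0.14 without 1 array, positive without untreated or EDHB replicate 2. SMC2 stood at -0.067 in the replicate 1 pair and at -0.058 to 0.14 without 1 array, negative without untreated replicate 2. SPC24 stood at -0.0099 in the replicate 1 pair, and CENPN at -0.0059 with mean probe sets. Leaving out 1 array moved the change by over 1.5 times for 16 members, 0 of them among the 28 that fell with the trend. The count of members called in limma, 0 at an adjusted p of 0.05, became 28 with an intensity trend, 15 at an adjusted p of 0.1, 6 with arrays centred on their medians or after cyclic loess, 27 with dim probe sets removed and 8 with the mean of a gene's probe sets. The count over all genes, 2, became 475, 144, 44 (centred), 40 (loess), 595 and 51 in these settings, and 0 at a posterior minimum of 0.5, with the replicate block and without any 1 array. The causes were not tested. With the trend, 25 to 32 members and 363 to 1201 genes (1.84% to 9.69% of those tested) passed under the scaling, dim probe set, probe set and posterior alternatives, and at least 25 of these members were among the 28.

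The replicate numbers are shared only as numbers: with 2 pairs, deviations of same-numbered arrays correlated at 0.090 over all genes and at 0.306 over the members. With the replicate block and the trend, 0 members passed, against 28, and leaving out any 1 array gave 0 as well (lowest adjusted p of a member 0.184 with the block and 0.301 to 0.533 without 1 array).

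Class medians kept their sign in all settings run. Values that moved by more than the spread between the replicates, and the full range without 1 array, were as follows. All members stood at -0.33 in the replicate 1 pair and -0.38 to -0.35 without 1 array. The early class stood at -0.32 when centred, -0.31 after loess, -0.29 with mean probe sets, -0.34 in the replicate 1 pair or pooled with the middle class, and -0.41 to -0.25 without 1 array. The middle class stood at -0.34 with mean probe sets or pooled, -0.32 in the replicate 1 pair and -0.37 to -0.34 without 1 array. The late class stood at -0.40 after loess and -0.39 with mean probe sets. Early minus late was 0.10 with mean probe sets, 0.064 pooled, and -0.0070 (without untreated replicate 1) to 0.15 (without EDHB replicate 1). Scaling moved the median over all genes by less than 0.01.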
